A study of Mus musculus with 4 samples.

Results

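Slamf1, Procr, Tek, Emcn, Esam, Ctnnal1 and Fgd5 are 7 genes that mark long-term blood stem cells. They were taken by name from 19938 genes measured in sorted mouse LSK cells, bone marrow cells that lack lineage markers and carry Sca-1 and Kit. Each was read from 1 probe set, the only one of its gene. The 7 genes were chosen with their responses to Hdac3 loss known, so their differences between null and wild-type cells are given as a description, without a test. The 3 groups were null LSK/Flt3- cells of genotype Vav-Cre/Hdac3Flox/- (2 arrays), wild-type LSK/Flt3- cells (1 array) and wild-type LSK/Flt3+ cells (1 array), all from bone marrow of C57BL/6 background mice. Sorted cells of 5 to 30 mice were pooled for each array. The Vav promoter drives Cre in blood cells, and is also known to be active in endothelial cells, so deletion need not be limited to stem cells. The sources used here do not give the age of the mice, whether wild-type mice carried Cre or a floxed allele, or whether separate mice gave the null replicates. P-values therefore measure only how far these arrays spread, which may be technical. Below, the wild-type fractions are called wild-type Flt3- and wild-type Flt3+ cells.

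Blood stem cells are rare, mostly quiescent cells found by combinations of surface proteins. LSK cells that lack the cytokine receptor Flt3 hold the long-term stem cells, while Flt3+ LSK cells have left that state and gained lymphoid potential. Slamf1 (CD150) is an adhesion and signalling receptor of the SLAM family, whose combination with absence of CD48 is used to isolate stem cells. Procr binds protein C, Tek (Tie2) is the receptor of the angiopoietins, Emcn is a sialomucin and Esam an immunoglobulin-type adhesion molecule of cell junctions. All 4 are also typical of endothelium. Ctnnal1 (alpha-catulin) and Fgd5, an exchange factor for the GTPase Cdc42, are intracellular proteins whose loci have been used for stem cell reporter mice. Hdac3 is the histone deacetylase of the NCoR and SMRT corepressor complexes.

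The values are log2 levels after RMA, so a difference of 1 is 2-fold. Array medians over the 19938 genes were 5.70 on null replicate 1 and 5.52 on null replicate 2, against 5.50 in wild-type Flt3- and 5.58 in wild-type Flt3+ cells. Hdac3 itself stood at 5.71 and 5.04 on the null arrays, against 6.18 in wild-type Flt3- and 6.33 in wild-type Flt3+ cells (limma, adjusted p = 1 in both comparisons). Which exons its probes read is not known here, so this checks the genotype only in part. The labelled cell type was checked on its gate genes. Kit stood between 10.36 and 10.77 in null cells and at 10.25 in wild-type Flt3- cells, and Cd34 between 9.77 and 9.90 against 10.34. Flt3 RNA was at 7.84 and 7.02 on the null arrays, at 9.18 in wild-type Flt3- and at 10.07 in wild-type Flt3+ cells, so the wild-type fractions sorted by Flt3 protein were within 2-fold of each other in Flt3 RNA. The Sca-1 gene Ly6a was not analysed here. With so few arrays precision is low: the typical (median) standard error of a null minus wild-type difference was 0.34.

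The promoters of the pair that lay farthest from wild-type levels, in opposite directions, are shown to set their sequence beside the expression values. They are the 250 bases before the RefSeq gene start in build GRCm38.p6, both on the plus strand, at chr1:171766882-171767131 for Slamf1 and chr3:137340828-137341077 for Emcn. Capitals mark matches on either strand to GATAA (the GATA core), GGAAG (an ETS core), CAGNTG (an E-box) or TGTGGT (the RUNX core).
Slamf1: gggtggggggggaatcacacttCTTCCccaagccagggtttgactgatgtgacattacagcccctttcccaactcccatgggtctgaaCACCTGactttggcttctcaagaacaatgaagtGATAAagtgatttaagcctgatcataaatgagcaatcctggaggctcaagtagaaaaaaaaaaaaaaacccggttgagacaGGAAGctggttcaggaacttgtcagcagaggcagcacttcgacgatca
Emcn: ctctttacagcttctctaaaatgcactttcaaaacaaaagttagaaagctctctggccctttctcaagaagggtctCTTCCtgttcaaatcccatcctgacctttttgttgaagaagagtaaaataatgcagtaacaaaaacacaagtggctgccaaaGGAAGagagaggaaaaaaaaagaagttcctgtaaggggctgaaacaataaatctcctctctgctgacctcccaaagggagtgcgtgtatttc
The Slamf1 window held 1 GATAA, 2 GGAAG and 1 CAGNTG match, and the Emcn window 2 GGAAG matches. Such matches are common: of 32851 mouse promoters of this length, 22.6% held GATAA, 64.1% GGAAG, 44.8% CAGNTG and 14.0% TGTGGT. Of the 6 members with a promoter in the table, 4 held GGAAG, 2 CAGNTG, 1 GATAA and 0 TGTGGT. CpG content split them, as seen after the values were known. Slamf1, Emcn and Tek had 3, 1 and 2 CpG dinucleotides in the window, while Procr, Ctnnal1 and Fgd5 had 13, 18 and 31, against a median of 6 over all promoters. A match describes letters and is not evidence of binding.

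Slamf1 RNA was several-fold higher in cells without Hdac3. It stood at 8.52 on null replicate 1 and 8.17 on null replicate 2, against 6.16 in wild-type Flt3- cells and 5.08 in wild-type Flt3+ cells. Both null arrays lay far above both wild-type arrays, and the 0.35 between the null arrays was small beside these gaps. The mean log2 difference from wild-type Flt3- cells was 2.18 ± 0.36 (SE from the fit; 4.53-fold higher), which ranked 11 from the top among 19938 genes. From wild-type Flt3+ cells it was 3.27 ± 0.36 (9.62-fold higher), rank 4. In pooled cells, more cells carrying Slamf1 RNA and more RNA per cell cannot be told apart, and the same holds for every gene below.

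Emcn went the other way. It stood at 4.67 and 4.24 on the null arrays, against 6.44 in wild-type Flt3- cells and 7.09 in wild-type Flt3+ cells. Both null arrays lay below both wild-type arrays. The log2 difference was -1.98 ± 0.34 (SE; 3.94-fold lower) from Flt3- and -2.63 ± 0.34 (6.20-fold lower) from Flt3+ cells, ranks 16 and 29 from the bottom of all genes. The sialomucin gene was thus among the lowest of all genes relative to wild type on arrays where the SLAM receptor gene was among the highest.

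The other 5 members stayed within 2-fold of wild-type Flt3- cells on both null arrays. Tek, the angiopoietin receptor gene, stood at 6.25 and 6.22 in null cells, against 6.78 in wild-type Flt3- cells and 5.51 in wild-type Flt3+ cells. Null cells thus lay between the wild-type fractions for Tek, at -0.54 ± 0.34 (SE) from the first and 0.72 ± 0.34 from the second. The null arrays differed by 0.02, a smaller gap than that of 95.3% of all genes.

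Esam, the junction molecule gene, stood at 5.85 and 5.89 in null cells, against 5.52 in wild-type Flt3- and 5.16 in wild-type Flt3+ cells. Both null arrays were above both wild-type arrays, but the difference from Flt3- cells, 0.35 ± 0.32 (SE), was close to its error. Procr, the protein C receptor gene, stood at 6.24 and 5.75, against 5.63 and 5.46 in the wild-type fractions without and with Flt3. Its difference of 0.37 ± 0.35 (SE) from Flt3- cells came mostly from replicate 1, at 0.61 against 0.12 for replicate 2. Without null replicate 1 it is therefore near 0.

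Ctnnal1 and Fgd5, the intracellular markers, lay at wild-type Flt3- levels. Ctnnal1 stood at 7.31 and 7.48 in null cells, against 7.37 in wild-type Flt3- and 6.55 in wild-type Flt3+ cells. Fgd5 stood at 5.76 and 5.60, against 5.76 in wild-type Flt3- and 5.40 in wild-type Flt3+ cells. In both genes the wild-type Flt3- value lay between the null arrays, and the differences, 0.02 ± 0.36 and -0.08 ± 0.33 (SE), have no settled direction. For Ctnnal1 the sign turned when each array was centred on its median, to -0.09.

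**Figure D1:**
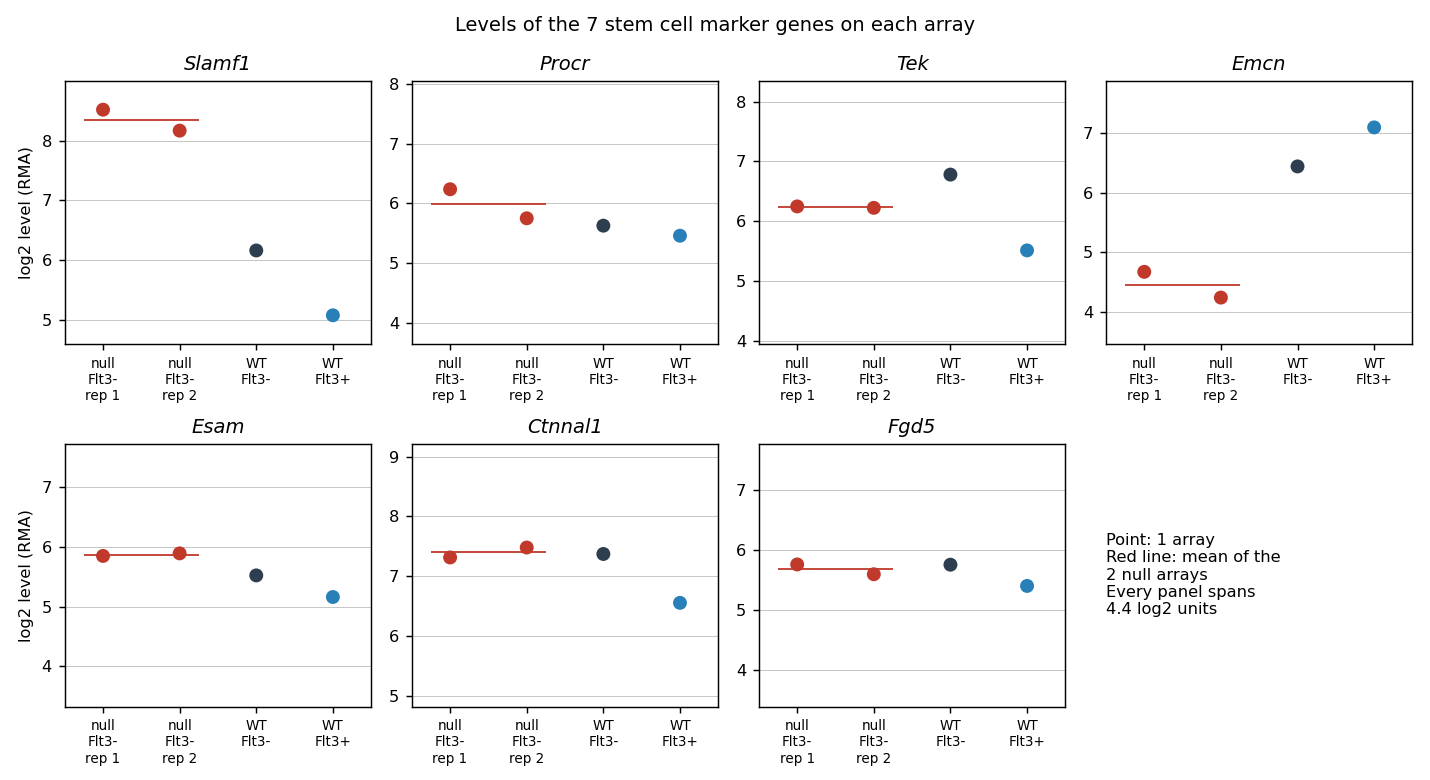
Log2 level (RMA) of each of the 7 genes on the 4 arrays; a point is 1 array, the red line the mean of the 2 null arrays, and panels have the same span on separate axes. Both null arrays are above both wild-type arrays for Slamf1 (8.52 and 8.17 against 6.16 and 5.08) and below both for Emcn (4.67 and 4.24 against 6.44 and 7.09).

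Counted together, 1 of 7 members (Slamf1) was at least 2-fold higher than wild-type Flt3- on both null arrays, where 0.251% of all genes were, and 1 (Emcn) was at least 2-fold lower, where 0.381% were. The same pair was 2-fold apart from wild-type Flt3+ cells, with 0.261% of all genes higher and 1.08% lower by that rule (1.34% in all). As the genes were chosen on these differences, nothing is read from these shares. From wild-type Flt3+ cells the mean differences of Tek (0.72), Esam (0.71) and Ctnnal1 (0.84) were below 2-fold. They were above the upper end, 0.64, of the central 95% of all genes for that mean. For single null arrays this end was 0.91 on replicate 1 and 0.61 on replicate 2. Tek, Esam and Ctnnal1 were below it on replicate 1 (0.74, 0.69 and 0.76) and above it on replicate 2 (0.71, 0.73 and 0.93). Both null arrays exceeded both wild-type arrays for 3 members (Slamf1, Procr and Esam), which held for 23% of all genes, and lay below both for 1 (Emcn), which held for 11.7%. The median difference from wild-type Flt3- cells was 0.02 over the 7 members and 0.09 over all genes. From wild-type Flt3+ cells it was 0.71 over the members and 0.05 over all genes. The 2 comparisons share the null arrays.

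Between the wild-type fractions, 6 of 7 members were lower in Flt3+ than in Flt3- cells, as 43.1% of all genes were. A marker of the stem cell fraction would lie in this direction. Tek had the largest difference, -1.27 (2.41-fold lower in Flt3+), rank 9 from the bottom of 19938 genes. Slamf1 followed at -1.08 (rank 23) and Ctnnal1 at -0.82 (rank 93). Those of Esam and Fgd5 were both -0.36, and that of Procr was -0.17. Tek and Slamf1 were thus 2-fold lower in Flt3+ cells, where 0.176% of all genes were. Each fraction has 1 array, so these differences have no replicate check.

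Emcn was the exception: its level was 7.09 in wild-type Flt3+ cells and 6.44 in wild-type Flt3- cells, a difference of 0.65. By size, 0.923% of all genes were 2-fold higher in Flt3+ cells, and Emcn was not among them. On these single arrays Emcn was therefore not higher in the fraction that holds the stem cells. The Flt3+ array also stood apart by its macrophage and dendritic cell markers, of which 14 of 14 were higher than in wild-type Flt3- cells and 9 at least 2-fold, where 56.6% of all genes were higher. Their summed linear level was 663 and 709 in null cells, against 560 in wild-type Flt3- and 2225 in wild-type Flt3+ cells. From wild-type Flt3- to null cells 7 of the 14 were higher and 7 lower, with a median of -0.05. Cd68, at 8.02 and 8.38 in null against 6.95 in wild-type Flt3- cells, adds much to the null sums. It was the 1 gene of the 14 at least 2-fold higher on both null arrays, where 0.251% of all genes were. Of the endothelial markers, 16 of 21 were higher in Flt3+ than in wild-type Flt3- cells, with a median difference of 0.22, and 1 (Lyve1, also a macrophage gene) was at least 2-fold higher. The part of either cell type in the Emcn value was not tested.

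**Figure D2:**
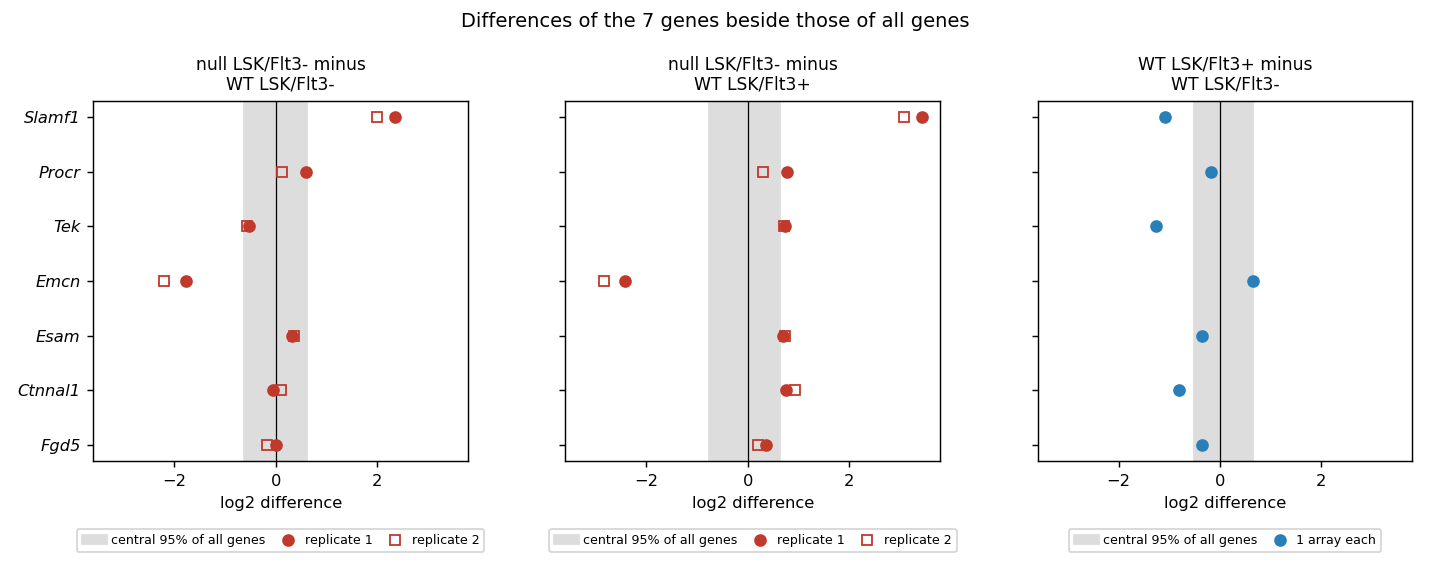
Log2 differences of the 7 genes from wild-type Flt3- cells (left) and wild-type Flt3+ cells (middle) for null replicates 1 (filled circles) and 2 (open squares), and between the wild-type arrays (right); grey marks the central 95% of all genes for the mean null difference or the wild-type difference. Slamf1 and Emcn lie outside the grey band on both null arrays in both comparisons. Tek, Esam and Ctnnal1 lie above it on both null arrays against wild-type Flt3+ cells. For null replicate 1 alone the central 95% ends at 0.91, above the values of Tek, Esam and Ctnnal1 on that array. Tek, Slamf1 and Ctnnal1 lie below the grey band between the wild-type fractions.

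Since Emcn, Tek, Procr and Esam are shared with endothelium, the endothelial list was read on the null arrays too. Of its 21 genes, 0 were past the limma test (Benjamini-Hochberg over all genes, 0.05) against wild-type Flt3- cells and 0 at an unadjusted p under 0.05. The background for that test was 0.0201% of genes, all higher in null cells. The median difference of the list was 0.07 (0.25 on null replicate 1 and -0.01 on replicate 2), beside 0.09 for all genes. Its summed linear level was 1282 and 1063 in null cells, against 1065 in wild-type Flt3- and 1436 in wild-type Flt3+ cells. Of the list, 15 genes were higher and 6 lower than in wild-type Flt3- cells, where 65.0% and 34.9% of all genes were. The largest differences were those of Sox18 (0.71), Tie1 (0.50) and Cldn5 (0.45), each higher on both null arrays. Cdh5, the cadherin of endothelial junctions, stood at 5.02 and 4.61 in null cells, against 4.60 and 4.90 in wild-type Flt3- and Flt3+ cells. The VEGF receptor gene Kdr stood at 4.71 and 4.11, against 4.22 and 4.55.

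Within the SLAM receptor family and its SAP adaptors, 0 of 11 measured genes passed limma in either comparison. At an unadjusted p under 0.05, 1 was higher and 0 lower against wild-type Flt3- cells, where 1.1% and 1.3% of all genes were. That gene was Cd48, the receptor whose absence goes with Slamf1 on stem cells. Cd48 stood at 10.41 and 10.54 in null cells, against 9.53 in wild-type Flt3- and 10.15 in wild-type Flt3+ cells, a difference of 0.94 from Flt3- cells (limma, adjusted p = 1). Cd244a (2B4), the CD48 receptor, was at 7.32 and 6.37 on the null arrays, against 7.63 in wild-type Flt3- cells, and the null arrays lay farther from each other than their mean lay from it (adjusted p = 1). The family median was 0.03 from Flt3- and -0.47 from Flt3+ cells. Slamf1 had a larger difference than each of the 11 relatives measured. As it was chosen with this difference known, nothing is read from that, and the difference between genes was not tested.

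Partners of Procr were read next. Of 9 measured genes of the protein C pathway 0 passed limma in either comparison, and the median difference from wild-type Flt3- cells was 0.19. F2r, the thrombin receptor PAR1 through which protein C bound to Procr can signal, stood at 8.75 and 8.95 in null cells, against 7.62 in wild-type Flt3- and 7.29 in wild-type Flt3+ cells. Both null arrays were over 2-fold above each wild-type array. Its differences from Flt3- cells were 1.13 and 1.33 on replicates 1 and 2 (limma, adjusted p = 1), and the mean difference from Flt3+ cells was 1.56 ± 0.36 (SE; adjusted p = 0.223). Thrombomodulin (Thbd), which helps thrombin activate protein C, was at 5.78 and 5.90 in null cells and at 6.08 in wild-type Flt3- cells.

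Of 10 measured genes around Tek 0 passed limma in either comparison, with a median of 0.16 from wild-type Flt3- cells. Tie1, the sister receptor of Tek, stood 0.59 and 0.42 above its level of 6.58 in wild-type Flt3- cells on null replicates 1 and 2 (mean difference 0.50 ± 0.35, SE; limma, adjusted p = 1). The ligand gene Angpt1 was at 10.04 and 9.65, against 10.01. Angpt2, the context-dependent ligand, was at 7.23 and 5.26 against 5.82, so that the null arrays lay on either side of wild type.

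Among 10 other sialomucin and mucin genes 0 passed limma and the median was 0.20 from wild-type Flt3- cells. Of these, 7 were higher, near the share of 65.0% among all genes. Emcn was chosen with its lower level known, so nothing is read from its contrast with this list. Podxl, a sialomucin of the CD34 family, stood at 5.58 and 6.03 in null cells, against 4.61 in wild-type Flt3- and 5.12 in wild-type Flt3+ cells. Its difference was 1.20 ± 0.34 (SE; limma, adjusted p = 0.995) from Flt3- cells. Prom1 was at 5.41 and 4.66 against 4.13 (0.91 ± 0.36, SE; adjusted p = 1). Cd34 itself was at -0.51 ± 0.32 (SE; adjusted p = 1).

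None of the 12 junctional genes related to Esam, the 9 catenin and vinculin genes related to Ctnnal1 or the 8 genes related to Fgd5 passed limma in either comparison. Their medians from wild-type Flt3- cells were 0.21, 0.14 and 0.06. At an unadjusted p under 0.05 against Flt3- cells, 0 of each list were found. The tight junction scaffold gene Tjp1 stood at 8.29 and 8.74 in null cells, against 7.78 in wild-type Flt3- and 6.62 in wild-type Flt3+ cells. It was over 2-fold above Flt3+ cells on both null arrays (difference 1.89 ± 0.38, SE; limma, adjusted p = 0.112).

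The wider set of long-term stem cell genes lay on both sides of wild type. Of 36 measured, 18 were higher and 18 lower in null than in wild-type Flt3- cells, where 65.0% of all genes were higher and 34.9% lower. Their median was 0.02, beside 0.09 for all genes. None passed limma, while 4 were higher and 4 lower at an unadjusted p under 0.05, where 1.1% and 1.3% of all genes were. Against wild-type Flt3+ cells 4 were higher and 2 lower by the unadjusted p, where 1.13% and 2.31% of all genes were, and 0 passed limma. Mecom, a transcription factor gene needed for stem cell maintenance, stood at 6.97 and 6.51 in null cells, against 8.06 in wild-type Flt3- and 7.28 in wild-type Flt3+ cells (-1.32 ± 0.38 from Flt3-, SE; adjusted p = 1). It was the 1 gene of this list that was 2-fold lower than Flt3- on both null arrays, and with the mean of its 2 probe sets the difference was -1.07. Differences from Flt3- cells were -0.72 and -1.96 on null replicates 1 and 2 for Vldlr and -0.68 and -1.91 for Eya1 (adjusted p = 1 each). Vwf, which marks platelet-biased stem cells, was at 6.93 and 8.11 against 6.22, with a gap between null arrays almost as large as its difference of 1.30 ± 0.48 (SE; adjusted p = 1).

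Genes typical of multipotent progenitors past the stem cell stage had a median of 0.01 from wild-type Flt3- cells, with 10 of 19 higher (65.0% of all genes) and 0 past limma. At an unadjusted p under 0.05, 3 were higher and 6 lower, where 1.1% and 1.3% of all genes were. Against wild-type Flt3+ cells 5 were past limma as lower in null cells and 0 as higher, where 0.281% and 0.0351% of all genes were. They were the lymphoid polymerase gene Dntt (-4.95, limma, adjusted p = 0.00275), Satb1 (-2.92, adjusted p = 0.00931), Il7r (-2.13, adjusted p = 0.0231), Csf1r (-2.34, adjusted p = 0.0250) and Flt3 (-2.64, adjusted p = 0.0317). This comparison holds the difference of sorted fraction as well as that of genotype, and the fractions were sorted on Flt3 protein. From wild-type Flt3- cells the differences were -3.14 for Dntt, -2.29 for Satb1, -0.75 for Il7r, 0.01 for Csf1r and -1.75 for Flt3. Csf1r is also on the macrophage and dendritic cell list, and was 2.35 higher in wild-type Flt3+ than in wild-type Flt3- cells. Of the 14 genes of that list, 6, Csf1r among them, passed limma as lower in null than in wild-type Flt3+ cells. Against wild-type Flt3+ cells, Flt3 was past the threshold in 5 of 8 other settings and Csf1r in 7 of 8.

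**Figure D3:**
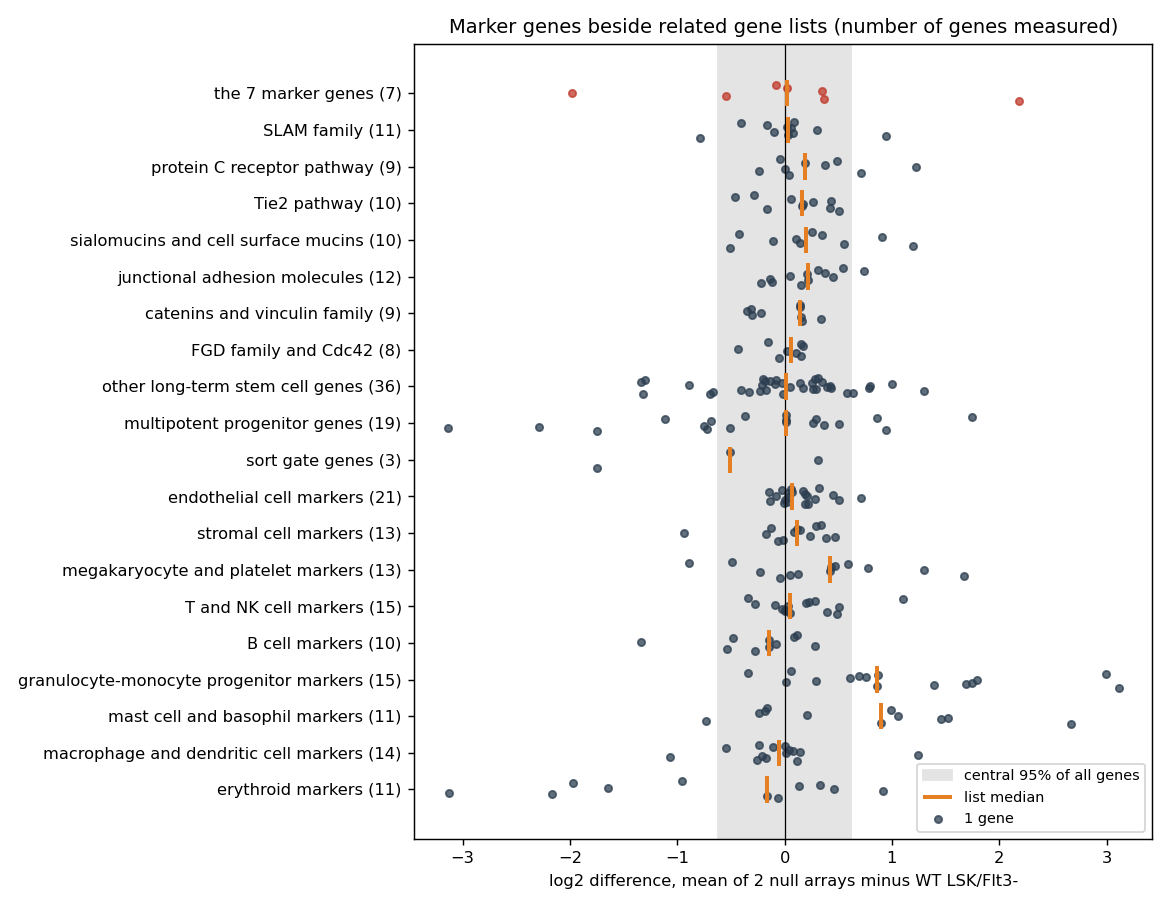
Log2 difference of each gene between the mean of the 2 null arrays and wild-type Flt3- cells, by gene list, with the number of genes measured; orange bars are list medians and grey the central 95% of all genes. The 7 marker genes have a median of 0.02 with Slamf1 and Emcn at the ends, and the granulocyte-monocyte progenitor list has one of 0.86. The mast cell list has a median of 0.90, but 0.37 on null replicate 1 and 0.99 on replicate 2.

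Other cells that could carry the members were read from their markers. Slamf1 is also found on T cells, B cells and macrophages, and Esam on megakaryocytes and platelets. Against wild-type Flt3- cells the median was 0.05 for 15 T and NK cell genes, -0.15 for 10 B cell genes, -0.05 for 14 macrophage and dendritic cell genes and 0.11 for 13 stromal genes. In the T and NK list the largest difference was that of Nkg7, a cytotoxic granule gene, at 8.58 and 10.06 in null cells, against 8.21 in wild-type Flt3- cells. The mean differences of Cd3d and Cd3g, components of the T cell receptor complex, were 0.49 and 0.39 and that of the coreceptor gene Cd8a was 0.51. All 3 were higher on both null arrays, but Cd3d and Cd3g were low, at 4.19 or less on every array. Those of other T cell genes were 0.05 (Cd3e), 0.005 (Cd247), 0.01 (Zap70), 0.03 (Cd8b1), -0.03 (Cd4), -0.09 (Cd5) and -0.27 (Cd28). In the list 11 genes were higher and 4 lower, where 65.0% of all genes were higher. The part of T cells in the Slamf1 level was not tested. For 13 megakaryocyte and platelet genes the median was 0.43, but 0.14 on null replicate 1 and 0.63 on replicate 2. For 11 erythroid genes it was -0.16. None of these lists held a gene past limma against Flt3- cells. Granulocyte-monocyte progenitor genes had a median of 0.86 (14 of 15 higher, 1 past limma), where 65.0% of all genes were higher. Mast cell and basophil genes had one of 0.90, but 0.37 on null replicate 1 and 0.99 on replicate 2. Of these 11 genes 7 were higher, near the share of all genes, and 0 were past limma. The other 4 were lower, among them Cpa3 at -0.73. At an unadjusted p under 0.05, 5 of the 11 were higher and 0 lower, where 1.1% and 1.3% of all genes were. Fcer1a and Gzmb, with mean differences of 2.66 and 1.53, were at least 2-fold higher on both null arrays, where 0.251% of all genes were. The granulocyte-monocyte gene past limma was Ms4a3, at 3.11 ± 0.35 (SE). Its limma adjusted p was 0.0321, and between 0.000827 and 0.326 in 8 other settings. The summed linear level of the granulocyte-monocyte list was 8425 and 10133 in null cells, against 4025 in wild-type Flt3- and 4992 in wild-type Flt3+ cells. Like Slamf1, it was higher on both null arrays than on either wild-type array. Within the null pair and within the wild-type pair its order was opposite to that of Slamf1. As each pair is only 2 arrays, nothing is read from this order. The part of this list in the Slamf1 level was not tested.

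Genes with patterns most like each member were found by the distance between log2 values centred on each gene's own mean over the 4 arrays, among genes with a mean level of at least 6. Closest to Slamf1 were Gimap4 (distance 0.70), Snora73b (0.97) and Ms4a3 (1.07). Gimap4, a lymphocyte GTPase gene, stood at 8.48 and 8.22 in null cells, against 5.43 in wild-type Flt3- and 5.25 in wild-type Flt3+ cells. No candidate lay within 0.5 of Slamf1: these 3 genes shared its step between genotypes but not its drop in wild-type Flt3+ cells.

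Closest to Emcn were Satb1 (distance 0.30), Flt3 (0.35) and Il1b (0.47), and these were the 3 genes within 0.5. Satb1, a chromatin organiser of lymphoid cells, stood at 7.38 and 6.96 in null cells, against 9.46 in wild-type Flt3- and 10.09 in wild-type Flt3+ cells. The Flt3 values given above had the same order, lowest on null replicate 2 and highest in Flt3+ cells. The inflammatory cytokine gene Il1b stood at 5.88 and 5.59, against 7.18 and 8.34 in the wild-type fractions without and with Flt3. On these 4 arrays Emcn thus ran beside Flt3 itself.

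Tek lay closest to Nol4l (0.24), Mccc1 (0.29) and Cttn (0.29), with 52 genes within 0.5, and Ctnnal1 to the stem and progenitor transcription factor gene Zbtb16 (0.17), Ccdc180 (0.19) and Dock1 (0.21), with 366. Zbtb16 stood at 6.55 and 6.65 in null cells, against 6.67 in wild-type Flt3- and 5.62 in wild-type Flt3+ cells. The patterns of Procr (closest to Aurkc, Ddx50 and Wdhd1), Esam (Clint1, Atp23 and Avpr2) and Fgd5 (Opa1, Dctn1 and Supt16) were so flat that 2061, 1583 and 4442 genes lay within 0.5. With 4 arrays such likeness is a description only.

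**Figure D4:**
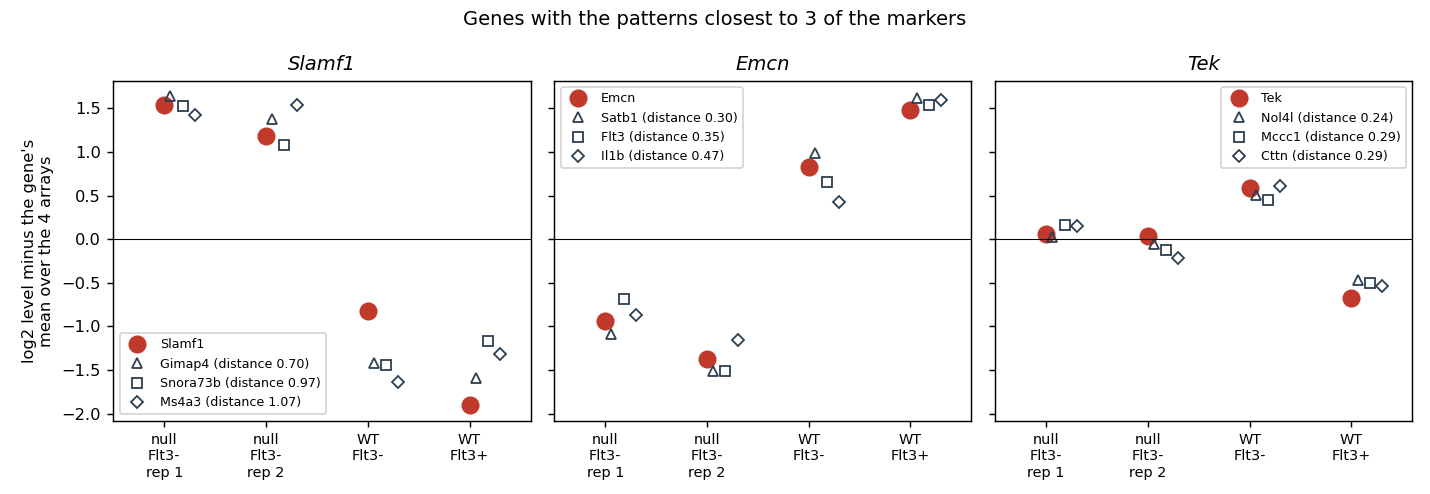
Log2 level minus the gene's mean over the 4 arrays for Slamf1, Emcn and Tek (red) and the 3 genes closest to each (open symbols, with distances). Emcn, Satb1, Flt3 and Il1b are low on both null arrays and highest in wild-type Flt3+ cells, while Slamf1 and its closest genes are high on both null arrays.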

How the data were processed

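RNA of sorted cells was measured on 4 Affymetrix arrays. The deposited log2 levels per probe set came from RMA (affy 1.23), run by the authors, per the submitters' processing notes. Array medians were unequal, so the scaling is not settled. The sources used here name no genome build. Of 35556 probe sets, 21789 had a single gene symbol in the platform's annotation, and the highest-mean one per gene gave 19938 genes. One fit in limma 3.58.1 (R 4.3.3, eBayes with a mean trend) held all arrays as 3 groups. Only the null pair gives it a residual degree of freedom (1, beside 9.01 prior ones), so lone wild-type arrays are assumed to vary alike. Tests were two-sided, with Benjamini-Hochberg adjustment over all genes at 0.05. A second rule, without a test, asked for a 2-fold difference on both null arrays. Promoter sequences are RefSeq's (GRCm38.p6). The members, the 19 lists and the naming rule were chosen with earlier results of these data known. Named were all members, Hdac3, gate genes and the 3 genes closest to each member. Of the list genes with the largest differences or past a rule, only some were named. Some other genes were chosen after their values were seen.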

Additional observations from a re-analysis of the deposited data

How the results depend on the processing

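Slamf1 stayed at least 2-fold higher and Emcn at least 2-fold lower than each wild-type fraction under quantile normalization, cyclic loess, median centring, the mean of all probe sets and without null replicate 1 or 2. From wild-type Flt3- cells Slamf1 ranged between 2.01 and 2.36 and Emcn between -2.20 and -1.76, the ends being single null arrays. The sign of Ctnnal1 held in 4 of 6 settings and that of Fgd5 in 5 of 6, and all other member differences kept theirs. Median centring moved the median of all genes from wild-type Flt3- cells by -0.12. Counts of all genes moved more. Against wild-type Flt3- cells limma called 4 genes higher and 0 lower (259 lower at an unadjusted p under 0.05). The count of higher genes was 2 with cyclic loess, 2 with median centring, 0 with quantile normalization (208 at the unadjusted p) and 12 with robust eBayes, which also called 13 lower. Against wild-type Flt3+ cells 7 were higher and 56 lower, but 15 and 99 with robust eBayes, while 89 were lower with median centring and 17 among genes with a mean level of at least 6. Between the wild-type fractions, 184 genes were 2-fold higher in Flt3+ cells (66 at a mean level of at least 6) and 35 lower (58 with median centring). The causes were not tested. Requiring 2-fold on 1 null array in place of both raised the counts by construction, from wild-type Flt3- cells to 133 higher and 165 lower without null replicate 1 and to 267 and 240 without replicate 2. Leaving out a null array gives limma no residual degree of freedom, so only values were given. No paired analysis was possible because the wild-type samples carry no replicate number that pairs them with the null ones. Whether a probe set stood above background is not known here, so low levels such as those of Emcn in null cells may be bounds.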

Other observations

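The summed linear level of the megakaryocyte and platelet genes was 1670 on null replicate 1 and 3663 on null replicate 2, against 2246 in wild-type Flt3- and 2171 in wild-type Flt3+ cells. Among them Pf4, a platelet chemokine gene, stood at 7.31 and 10.04, against 8.72 and 9.20. Of the erythroid genes, Car1 stood at 6.44 and 10.92 on the null arrays, against 11.81 and 11.37, while the list's median difference from wild-type Flt3- cells was -0.35 on null replicate 1 and -0.02 on replicate 2. Of the members, the same pair of arrays differed by 0.49 for Procr and 0.43 for Emcn, and by 0.02 for Tek and 0.04 for Esam, beside a median of 0.27 over all genes.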
